A study of Rattus norvegicus with 5 samples.

Results

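The genes described are 44 genes of the cell division cycle and of DNA replication, taken from a list of symbols, in fat of the rat mesentery that lies around the pancreas (pMES). The rule reads no difference between arrays, although the list was drawn up with earlier results of these data known. A gene counted as measured where a probe set was annotated with its symbol alone, and the probe set with the highest mean over the arrays was taken for each gene. By this rule 41 of the 44 genes were measured, out of 14217 genes in the whole series, and 39 were bright enough to be tested, out of 11509. Tpx2, Gins2 and Rrm2 had no such probe set, and Rrm2 is named only on 2 probe sets that carry several symbols. Ccna2 and Ttk were measured but were too dim for the filter, so they have values and no test. The genes fall into 10 measured of 12 DNA replication genes, 27 measured of 28 mitosis genes and 4 measured of 4 G1 cyclins.

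The tissue came from male Wistar rats that were 7 weeks old at the start and were kept for 30 days on their diet. The standard group, 3 samples, received chow with 8% of calories as fat, and the cafeteria group, 2 samples, received cafeteria food in which fat supplied 66% of calories, and is called obese in the labels. Each of the 5 arrays, of an Affymetrix rat genome design, carried an independent sample, and no genotype or agent other than diet is given. Whole tissue was used, so fewer cells of a type and less RNA per cell cannot be told apart. The values are log2 levels, and a difference of 1 is a doubling. Array medians lay between 5.70 and 5.75, pairs of arrays correlated at 0.987 to 0.994 across probe sets, and fat cell markers were bright on every array, with adiponectin (Adipoq) at 12.94 to 13.28. Standard replicate 1 stood apart in genes of the pancreatic acinar cell, at a list mean 3.16 above the standard mean, with pancreatic lipase (Pnlip) at 10.11 there and at most 4.45 elsewhere. Standard replicates 2 and 3 stood apart in smooth muscle and pericyte genes, at list means of -0.89 and 0.96.

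A dividing cell commits itself in G1 through D and E cyclins, copies its DNA in S phase, and then separates the copies in mitosis. Before S phase the Mcm proteins are loaded on DNA as a ring that later unwinds it, with the help of Cdt1. Transcription of many S phase genes is controlled by E2F factors, and many mitotic genes are transcribed later, through CCAAT boxes and an element called the cell cycle genes homology region (CHR) that binds the DREAM and MuvB complexes. In adult fat most mature fat cells do not divide, and the cells that do are mainly precursors, immune cells, vessel cells and mesothelium.

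The promoters of the mitosis and the replication genes carry different letters. A sample of them is shown because the arrays are compared over mitosis and replication genes too. Each stretch is the 150 bases before the RefSeq gene start (assembly GRCr8), written 5′ to 3′ on the gene's strand. Capitals mark CCAAT, the CHR as TTTGAA or TTTAAA, and an E2F element as TTTCGCGC, TTTGGCGC or TTTCCCGC, each on either strand. The first 4 belong to mitosis genes.
Cdk1 (chr20:19265143-19265292, plus strand): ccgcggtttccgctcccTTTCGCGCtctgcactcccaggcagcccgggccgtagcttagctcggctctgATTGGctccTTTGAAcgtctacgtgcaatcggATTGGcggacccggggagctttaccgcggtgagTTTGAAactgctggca
Ccnb1 (chr2:33655226-33655375, minus strand): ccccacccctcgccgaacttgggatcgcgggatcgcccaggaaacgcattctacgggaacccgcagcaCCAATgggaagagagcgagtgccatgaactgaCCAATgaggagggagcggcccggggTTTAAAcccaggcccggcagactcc
Prc1 (chr1:143659331-143659480, plus strand): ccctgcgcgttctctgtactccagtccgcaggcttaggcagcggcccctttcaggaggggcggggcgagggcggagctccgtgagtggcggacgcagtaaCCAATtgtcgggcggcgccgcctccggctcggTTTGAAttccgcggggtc
Top2a (chr10:84473094-84473243, minus strand): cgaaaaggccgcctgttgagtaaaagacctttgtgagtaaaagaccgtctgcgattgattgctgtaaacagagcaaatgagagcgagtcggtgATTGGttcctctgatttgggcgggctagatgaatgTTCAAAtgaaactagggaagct
The other 3 belong to subunits of the Mcm ring, where E2F elements stand in capitals, in Mcm7 overlapping a CCAAT box.
Mcm2 (chr4:122918095-122918244, minus strand): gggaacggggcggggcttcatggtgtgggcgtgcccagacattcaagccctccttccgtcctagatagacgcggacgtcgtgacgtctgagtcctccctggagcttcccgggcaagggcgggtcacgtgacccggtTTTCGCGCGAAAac
Mcm6 (chr13:42404353-42404502, minus strand): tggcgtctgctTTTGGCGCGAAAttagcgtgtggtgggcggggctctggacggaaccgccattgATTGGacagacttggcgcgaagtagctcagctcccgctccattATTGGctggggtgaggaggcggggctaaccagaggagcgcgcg
Mcm7 (chr12:22163179-22163328, minus strand): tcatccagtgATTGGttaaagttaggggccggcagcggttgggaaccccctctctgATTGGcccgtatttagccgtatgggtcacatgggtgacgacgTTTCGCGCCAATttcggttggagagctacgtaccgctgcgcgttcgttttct

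Of the 44 genes, 33 had a promoter in the RefSeq table, and the search covered 250 bases before to 50 after the start. These are not the same genes as those measured on the arrays. Gins2 had a promoter and no measured level, while Mcm4, Ccna2 and Foxm1 were among those measured without a promoter. A CHR was present in 20 of 22 mitosis promoters (90.9%) and in 1 of 10 replication promoters, that of Mcm2, against 28.3% of all 33469 promoters and 18.3% of 9573 promoters of genes kept on the array. An E2F element was present in 7 of 10 replication promoters (70.0%) and in 1 of 22 mitosis promoters (4.55%), that of Cdk1, against 1.72% of all promoters and 3.31% of those of genes kept on the array. CCAAT stood in 18 of 22 mitosis and 7 of 10 replication promoters, against 37.5% of all and 37.4% of those of genes kept. TTTAAA reads the same on both strands, and a base could count toward more than 1 motif. These matches describe letters and show no binding.

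The mitosis genes were high on 1 of the cafeteria arrays and the replication genes were low on the other. Averaged over 27 mitosis genes, cafeteria replicate 1 lay 0.64 above the standard mean and cafeteria replicate 2 lay 0.06 below it, at -0.06, while the standard arrays lay at 0.11, -0.07 and -0.05. Averaged over 10 replication genes, cafeteria replicate 1 lay at 0.01, cafeteria replicate 2 at -0.31, and the standard arrays at 0.11, -0.01 and -0.10. The gap between the mitosis and the replication means was 0.63 on cafeteria replicate 1 and 0.25 on cafeteria replicate 2, and between -0.06 and 0.06 on the standard arrays. No gene of the 39 tested passed the test of cafeteria against standard arrays (limma, adjusted p under 0.05), and over all 21729 probe sets the share called was 0.00%. Unadjusted p-values under 0.05 were reached by 2 genes that lay higher in cafeteria arrays, Aurka and Ccne1, where 6.05% of all probe sets did, and by 2 that lay lower, Ccnd1 and Mcm7, where 6.62% did. For a single gene the exact permutation test has 10 splits of the arrays and cannot go below p = 0.1.

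**Figure D1:**
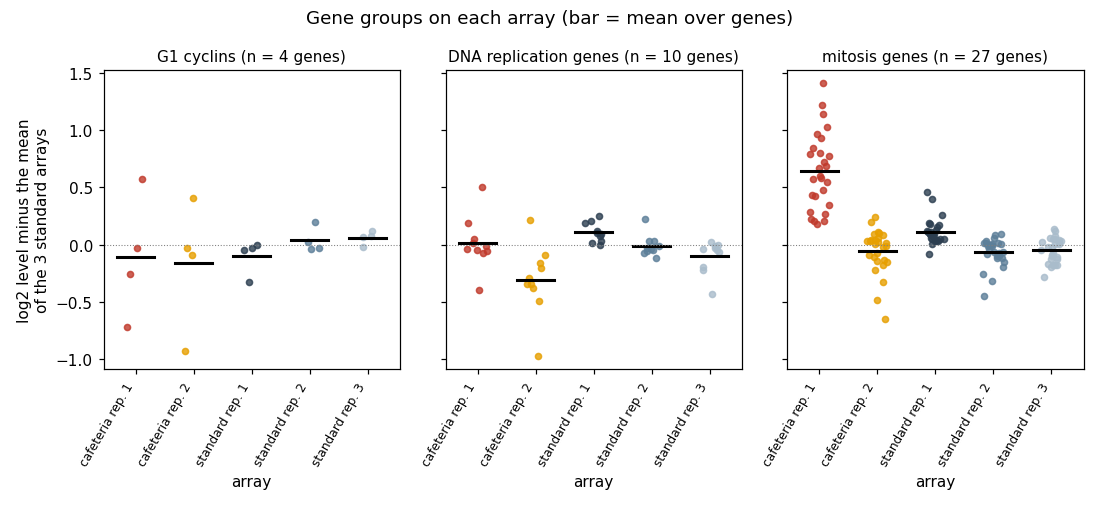
Each point is a gene's log2 level on an array minus its mean over the 3 standard arrays, for the G1 cyclins, the replication genes and the mitosis genes, and bars are means over genes. The mitosis bar stands at 0.64 on cafeteria replicate 1 and the replication bar at -0.31 on cafeteria replicate 2, while the bars of both groups on standard arrays lie between -0.10 and 0.11.

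The array counts were read against all probe sets. Cafeteria replicate 1 lay above all 3 standard arrays for 27 of 27 measured mitosis genes, 3 of 10 replication genes and 1 of 4 G1 cyclins, against 26.6% of all probe sets kept. It was the highest of the 5 arrays for 26 of 27 mitosis genes, all but Aurka, and for 3 replication genes, against 18.3%. Cafeteria replicate 2 lay above all standard arrays for only 2 of the 41 measured genes, Aurka and Ccne1, against 29.3%. On the low side, cafeteria replicate 2 lay below all standard arrays for 8 of 10 replication genes, 8 of 27 mitosis genes and 2 G1 cyclins, against 29.3%, and was the lowest array for 8 replication and 8 mitosis genes, against 22.3%. Cafeteria replicate 1 lay below all standard arrays for 3 genes, Ccnd1, Ccnd2 and Mcm7, against 28.6%. The cafeteria arrays agreed on few genes: both lay above all standard arrays for Aurka and Ccne1, against 13.3%, and both below for Ccnd1, Ccnd2 and Mcm7, against 14.1%. The genes of a group share their array and its cells, so these counts are not independent replicates.

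**Figure D2:**
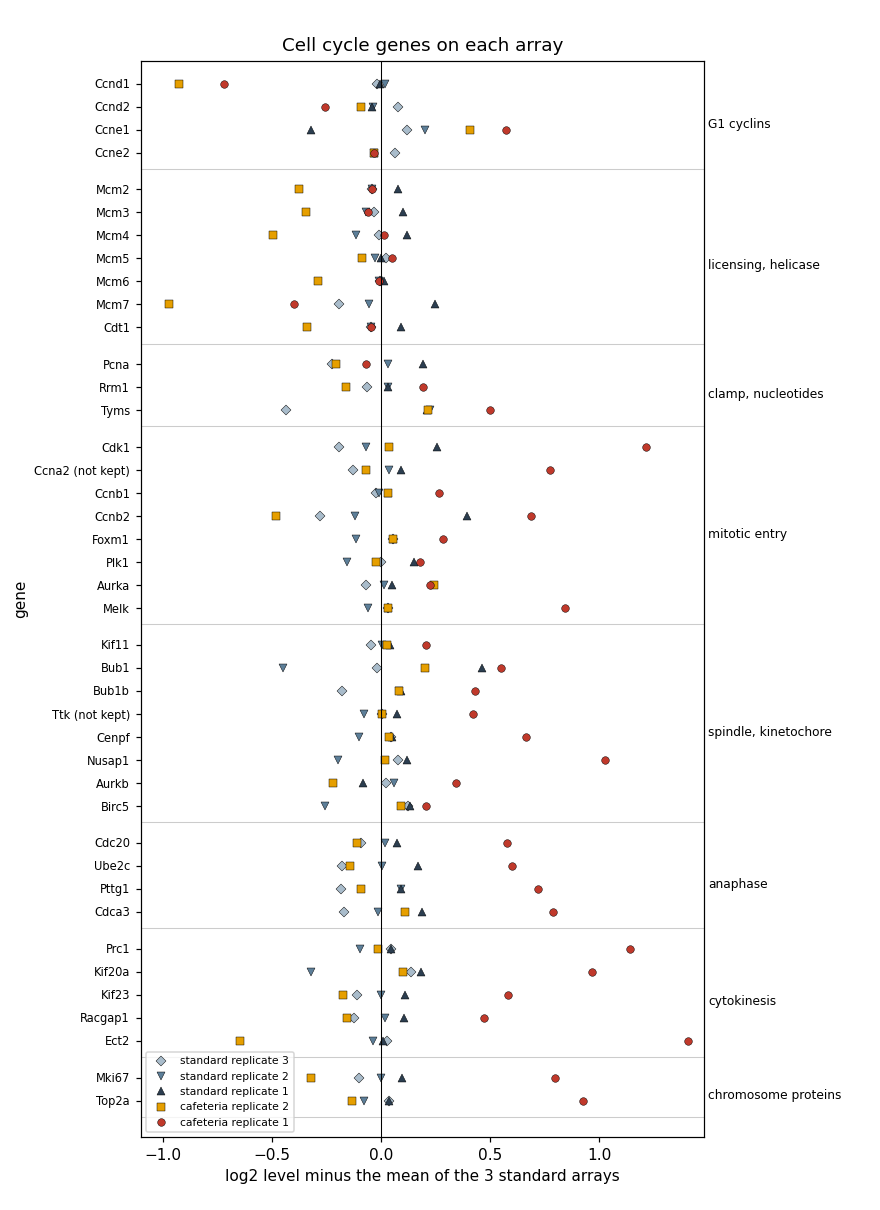
Each gene's log2 level on the 5 arrays is plotted as its difference from the mean of the 3 standard arrays, by role. The red circles of cafeteria replicate 1 lie to the right of all standard symbols for all 27 mitosis genes plotted, and the orange squares of cafeteria replicate 2 lie to the left of them for all 7 licensing genes.

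Among the G1 cyclins, which pass growth signals to the cell cycle, Ccnd1 was lower in cafeteria arrays. Cyclin D1 (Ccnd1) read 9.37 and 9.16 on cafeteria replicates 1 and 2 and 10.08, 10.11 and 10.07 on standard replicates 1 to 3. The standard arrays were almost alike and lay above both cafeteria arrays. The difference was -0.82 ± 0.08 (SE), with a 95% interval of -1.03 to -0.61, a 1.77-fold lower level (limma, unadjusted p = 0.000257, adjusted p = 0.171; exact permutation p = 0.1). Its other probe sets gave -0.62 ± 0.08 and -0.53 ± 0.10, in each case with both cafeteria arrays below all standard arrays. It was the only G1 cyclin with so large a gap between diets.

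Cyclin D2 (Ccnd2), a close relative, read 10.85 and 11.02 on the cafeteria arrays and 11.06, 11.07 and 11.18 on the standard arrays. Both cafeteria values lay below the standard values, by little, with a difference of -0.17 ± 0.08 (limma, adjusted p = 0.462). Cyclin E1 (Ccne1), which activates Cdk2 at the start of S phase, read 5.89 and 5.73 against 4.996, 5.52 and 5.44, and differed by 0.49 ± 0.18 (limma, adjusted p = 0.394). Cyclin E2 (Ccne2) read 5.34 and 5.34 against 5.34, 5.34 and 5.44, with no separation of the diets. The 4 G1 cyclins thus showed no common direction, with 1 higher and 3 lower in the cafeteria group and a median difference of -0.10.

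The 7 measured licensing and helicase genes were all lower in the mean of the cafeteria arrays, with a median difference of -0.20, against -0.00 over all probe sets. Cafeteria replicate 2 lay below all standard arrays for 7 of 7. Mcm7 read 7.88 and 7.31 on the cafeteria arrays and 8.52, 8.22 and 8.08 on the standard arrays. It is the only gene of the group for which cafeteria replicate 1 was below all standard arrays too. The difference was -0.68 ± 0.23, with an interval of -1.29 to -0.08, a 1.61-fold lower level (limma, unadjusted p = 0.0339, adjusted p = 0.354).

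The other subunits of the ring were low on cafeteria replicate 2 alone. Mcm4 read 7.19 and 6.68 against 7.29, 7.06 and 7.17, and differed by -0.24 ± 0.18. Mcm2 read 7.28 and 6.94 against 7.40, 7.28 and 7.28, and differed by -0.21 ± 0.12. On cafeteria replicate 1 these genes sat within or at the edge of the standard values. Mcm3 read 6.22 and 5.93 against 6.38, 6.21 and 6.25. Mcm6 read 6.80 and 6.52 against 6.82, 6.80 and 6.81. In both, the first cafeteria array met the standard arrays and the second did not.

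Mcm5 differed least among the ring genes. It read 6.17 and 6.03 against 6.12, 6.09 and 6.14, and its sign depends on the scaling, at -0.02 as deposited and 0.03 after quantile normalization. Cdt1, which loads the ring on DNA, read 4.999 and 4.70 against 5.14, 4.999 and 4.999, a difference of -0.19 ± 0.11. The median of the 7 genes was -0.04 on cafeteria replicate 1 and -0.35 on cafeteria replicate 2, relative to the standard mean.

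Genes for the replication clamp and for nucleotide supply did not share a direction. Pcna, the clamp that holds DNA polymerase on its template, read 10.07 and 9.93 against 10.33, 10.17 and 9.91, with the diets overlapping and a difference of -0.14 ± 0.14. Rrm1, the large subunit of ribonucleotide reductase, read 7.65 and 7.30 against 7.49, 7.49 and 7.39. Its cafeteria values lay on either side of the standard values, and the difference was 0.02 ± 0.12. Tyms, thymidylate synthase, read 5.66 and 5.37 against 5.37, 5.38 and 4.72, and differed by 0.36 ± 0.25 with its lowest value on standard replicate 3. Over the 10 replication genes the difference ran from -0.68 to 0.36, with 2 higher, 8 lower and a median of -0.17.

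Mitotic entry genes were high on cafeteria replicate 1 to very different degrees. Cdk1, the kinase that drives cells into mitosis, read 7.35 and 6.17 on the cafeteria arrays and 6.39, 6.07 and 5.94 on the standard arrays. Cafeteria replicate 1 was 1.22 above the standard mean, a 2.32-fold level, and cafeteria replicate 2 was 0.04 above it, inside the standard values. The difference between diets, 0.63 ± 0.39, had an interval of -0.40 to 1.66 (limma, adjusted p = 0.508). Cyclin A2 (Ccna2), a Cdk1 partner below the filter, read 4.86 and 4.02 against 4.18, 4.12 and 3.96, again high on the first cafeteria array alone.

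Cyclin B2 (Ccnb2) read 7.29 and 6.12 against 7.00, 6.49 and 6.33, so that the cafeteria arrays were the highest and the lowest of all. The difference was 0.10 ± 0.42. Cyclin B1 (Ccnb1) read 5.99 and 5.75 against 5.75, 5.72 and 5.70 on its brighter probe set. Its other probe set showed a wider gap, with 5.96 and 4.68 against 5.08, 4.64 and 4.54, which puts cafeteria replicate 1 at 1.21 above the standard mean in place of 0.27. Melk, a kinase of dividing cells, read 5.13 and 4.32 against 4.32, 4.23 and 4.32, a difference of 0.44 ± 0.25.

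On cafeteria replicate 1, Foxm1 lay 0.285 and Plk1 0.181 above the standard mean. Foxm1, a transcription factor for mitotic genes, read 5.87 and 5.64 against 5.64, 5.47 and 5.64. Its other probe set, below the filter, read 3.76 and 3.66 against 3.65, 3.90 and 3.61, with no separation of the diets. Plk1, a kinase of mitotic entry, read 6.07 and 5.86 against 6.04, 5.73 and 5.89. Both had cafeteria replicate 2 inside the standard values. Aurka, the centrosome kinase, was the exception among the mitosis genes, since it was as high on the second cafeteria array as on the first, with 5.30 and 5.32 against 5.13, 5.09 and 5.01. Its difference, 0.23 ± 0.06 with an interval of 0.08 to 0.39, was small and had the smallest SE of the mitosis genes tested (limma, unadjusted p = 0.0135, adjusted p = 0.295).

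Spindle and kinetochore genes followed cafeteria replicate 1 as well. Nusap1, which bundles spindle microtubules, read 6.99 and 5.98 against 6.08, 5.76 and 6.03, and its other probe set, where cafeteria replicate 2 also lay above all standard arrays, gave a difference of 0.56 beside 0.52. Cenpf, a kinetochore protein, read 6.36 and 5.73 against 5.75, 5.60 and 5.74. Bub1, a kinase of the spindle checkpoint, read 5.70 and 5.35 against 5.61, 4.70 and 5.13, with a wide spread among the standard arrays. For Bub1 the first cafeteria array exceeded the highest standard array by only 0.09. Its partner Bub1b read 4.71 and 4.36 against 4.37, 4.36 and 4.10, and Ttk, below the filter, read 4.16 and 3.74 against 3.81, 3.66 and 3.74. The other, dimmer Ttk probe set read 3.41 and 3.25 against 3.21, 3.06 and 3.21, with cafeteria replicate 2 above all standard arrays.

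The remaining spindle genes showed small or uneven gaps. Kif11, the motor that pushes spindle poles apart, read 5.11 and 4.93 against 4.94, 4.90 and 4.86, while its other probe set read 5.64 and 4.49 against 4.89, 4.89 and 4.68. The chromosomal passenger kinase Aurkb read 4.96 and 4.40 against 4.54, 4.68 and 4.64, with the cafeteria arrays on opposite sides. Its partner Birc5 read 4.93 and 4.81 against 4.85, 4.46 and 4.84. Over the 8 genes the median was 0.43 above the standard mean on cafeteria replicate 1 and 0.03 above it on cafeteria replicate 2.

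All 4 genes of anaphase and protein destruction exceeded every standard array on cafeteria replicate 1. Cdca3, a trigger of mitotic entry that is itself degraded at the end of mitosis, read 6.80 and 6.12 against 6.20, 6.001 and 5.84. Securin (Pttg1), which holds back the separation of sister chromatids, read 7.17 and 6.36 against 6.54, 6.54 and 6.27. In both, cafeteria replicate 2 lay within the standard values. Cdc20, the activator of the anaphase-promoting complex, read 7.21 and 6.53 against 6.71, 6.65 and 6.54, and Ube2c, which supplies that complex with ubiquitin, read 6.79 and 6.04 against 6.35, 6.19 and 6.01. The 5 probe sets of Cdc20 gave differences from -0.05 to 0.29.

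Cytokinesis genes had a median of 0.97 above the standard mean on cafeteria replicate 1 over 5 genes. Ect2, the exchange factor that switches on RhoA at the cleavage site, read 6.51 on cafeteria replicate 1 and 4.45 on cafeteria replicate 2, and 5.11, 5.06 and 5.13 on the standard arrays. Its standard values were almost alike, and the cafeteria arrays lay far from them on opposite sides. The first was 1.41 above the standard mean, a 2.65-fold level, and the second lay below all standard arrays, at -0.64, so that the cafeteria arrays differed 4.15-fold. The mean difference between diets was therefore no more than 0.38 ± 0.63.

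Prc1, which bundles the central spindle, read 8.06 and 6.91 against 6.97, 6.83 and 6.97, and cafeteria replicate 1 was at 2.20-fold the standard level. Kif20a, a motor of the central spindle, read 6.48 and 5.62 against 5.70, 5.20 and 5.65. Kif23 and Racgap1, the partners of the centralspindlin complex, showed smaller gaps. Kif23 read 5.54 and 4.79 against 5.07, 4.96 and 4.85, while its other, dimmer probe set read 4.36 and 4.26 against 4.32, 4.32 and 4.31, with hardly any gap. Racgap1 read 6.50 and 5.87 against 6.13, 6.04 and 5.90. Its other probe set, below the filter, read 4.42 and 4.15 against 4.07, 4.07 and 4.04, with cafeteria replicate 2 above all standard arrays.

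The proliferation marker Mki67, which coats mitotic chromosomes, read 7.68 and 6.56 against 6.98, 6.88 and 6.78. Cafeteria replicate 1 was at 1.74-fold the standard level and cafeteria replicate 2 lay 0.32 below it on the log2 scale, at -0.32, outside the standard values on that side. The diet difference was 0.24 ± 0.35 (limma, adjusted p = 0.752), with the cafeteria arrays 2.17-fold apart. Topoisomerase Top2a, which untangles sister chromatids, read 7.10 and 6.04 against 6.21, 6.09 and 6.21, and its other probe set gave a difference of 0.30 beside 0.40. On the brighter probe sets cafeteria replicate 1 was the highest array and cafeteria replicate 2 the lowest in both genes. On the other Top2a probe set cafeteria replicate 2 lay above all standard arrays, with 5.76 and 5.27 against 5.25, 5.25 and 5.13.

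**Figure D3:**
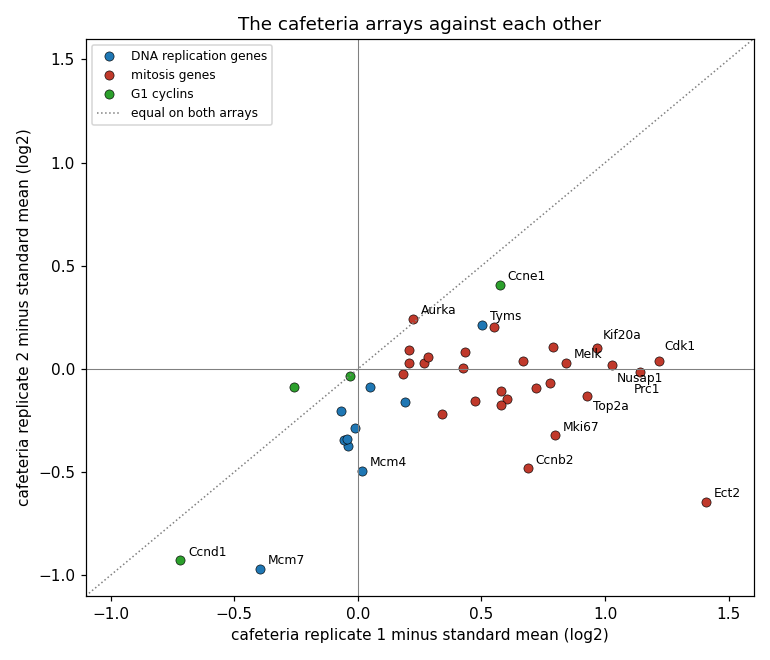
Each point is a gene, with its log2 level relative to the standard mean on cafeteria replicate 1 (horizontal) and on cafeteria replicate 2 (vertical). Points lie below the dotted line of equal values for 38 of 41 genes, the mitosis genes to the right of 0 and the Mcm genes below 0.

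The spread between the cafeteria arrays was wide for these genes. Cafeteria replicate 1 exceeded cafeteria replicate 2 by more than 0.5 for 18 of 27 measured mitosis genes and for 2 replication genes, Mcm4 and Mcm7, against 4.94% of all probe sets kept, and the reverse held for 0 of 41, against 3.92%. The median gap between the cafeteria arrays was 0.69 for mitosis genes and 0.29 for replication genes, where the median range over the 3 standard arrays was 0.22 and 0.15. Ranked among 11509 genes by this gap, Ect2 was at place 14, Cdk1 at 104, Ccnb2 at 108, Prc1 at 111 and Mki67 at 122. Of the replication genes, Mcm7 came first in that ranking, at 547.

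**Figure D4:**
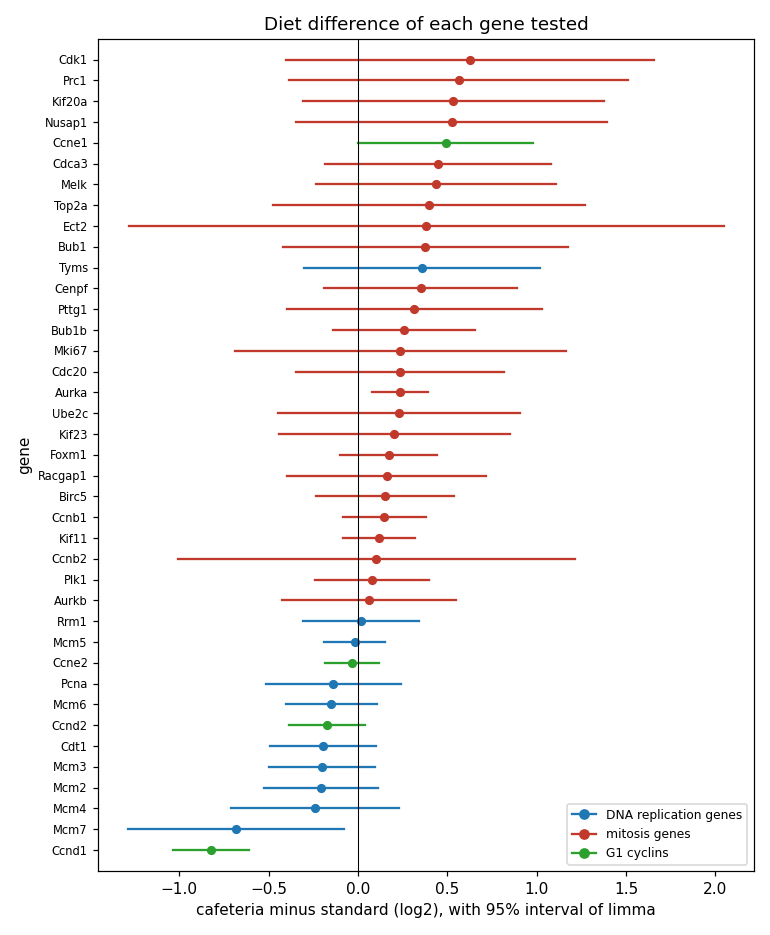
Points are the cafeteria minus standard difference (log2) of the 39 genes tested, and lines are its 95% interval from limma. Intervals exclude 0 for Ccnd1 and Mcm7 on the lower side and Aurka and Ccne1 on the higher side, before adjustment.

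Leaving out a cafeteria array leaves a lone array of that diet, so each difference is that array's distance from the standard mean. Over the 39 genes the median distance was 0.43 for cafeteria replicate 1 and -0.09 for cafeteria replicate 2. Such fits hold no spread between cafeteria arrays, so they cannot test diet and their p-values are not given.

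Other genes of the same processes were taken from lists that hold none of the 44. Of 66 further mitosis genes, 55 were measured and 42 of these lay above all standard arrays on cafeteria replicate 1, against 26.6% of all probe sets kept, with a list mean of 0.36 there and -0.02 on cafeteria replicate 2. Of the 40 kept, 34 were higher and 6 lower in the cafeteria mean, and 0 passed the test. The genes with the smallest unadjusted p-values are given here. Cks1b, a small Cdk-binding subunit, read 7.98 and 8.09 against 7.61, 7.77 and 7.51, a difference of 0.41 ± 0.10. Cenpn, which recognises centromeric nucleosomes, read 6.10 and 6.40 against 5.92, 5.34 and 5.57, a difference of 0.64 ± 0.20. Troap gave 0.34 ± 0.08, and the tubulin Tubb5, which serves all cells, gave -0.28 ± 0.10.

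Of 56 further S phase genes, 51 were measured, with a mean of 0.04 above the standard mean on cafeteria replicate 1 and -0.05 on cafeteria replicate 2. Cafeteria replicate 2 lay below all standard arrays for 18 of the 51, a share near the 29.3% of all probe sets kept. Of the 41 kept, 17 were higher and 24 lower, with a median of -0.03, and 0 passed the test. Pold3, a subunit of DNA polymerase delta, gave -0.27 ± 0.08 and Rfc5, of the clamp loader, -0.27 ± 0.08, both with the cafeteria arrays below all standard arrays, and Rpa3 gave 0.23 ± 0.09 and Prim2 0.33 ± 0.14.

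Of 33 G1 kinases and brakes of the cycle, 31 were measured and 29 kept, 13 higher and 16 lower with a median of -0.01, and 0 passed. Cdkn1b, the p27 inhibitor of Cdk2, read 10.003 and 9.86 against 10.18, 10.22 and 10.22, a difference of -0.27 ± 0.06. Rbl2, the pocket protein of the DREAM complex, read 8.39 and 8.41 against 8.59, 8.63 and 8.62, a difference of -0.21 ± 0.05. Both were lower on both cafeteria arrays, as Ccnd1 was. Cdkn2d, an inhibitor of Cdk4 and Cdk6, gave 0.27 ± 0.06, and Lin52, of the MuvB core, 0.18 ± 0.06. The smallest adjusted p of the list in limma was 0.276.

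Cell type markers moved with the same arrays, and their part in the results was not tested. Mesothelial markers, of the lining of the mesentery, were high on cafeteria replicate 1 and low on cafeteria replicate 2, with list means of 0.47 and -0.37 and standard arrays from -0.09 to 0.09. Of the 9 measured, cafeteria replicate 1 was the highest array for 8, against 18.3% of all probe sets kept, and cafeteria replicate 2 the lowest for 6, against 22.3%. Mesothelin (Msln) read 11.41 and 10.27 against 10.76, 10.76 and 10.67, and Lrrn4 read 10.92 and 9.90 against 10.67, 10.67 and 10.77.

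T cell, B and plasma cell, mast cell and macrophage lists were low on cafeteria replicate 2, where the Mcm genes were low. The neutrophil list, with 6 genes measured and 1 bright enough to be tested, was not, at 0.12. The list mean on cafeteria replicate 2 was -0.72 for 10 T cell genes, where the standard arrays ran from -0.26 to 0.18. For 7 B and plasma cell genes it was -1.13, where the standard arrays ran from -0.27 to 0.40. Of those 7 genes 4 were bright enough to be tested, and the median of the 7 was -0.77. The list mean was -1.03 for 10 mast cell genes, where the standard arrays ran from -0.33 to 0.39. For 14 macrophage genes it was -0.45, where they ran from -0.26 to 0.19. On cafeteria replicate 1 the same lists stood at -0.25, -0.09, -0.24 and -0.12. The B cell gene Ms4a1 read 5.97 and 3.91 against 5.70, 6.40 and 5.35, and the T cell gene Cd3e read 4.64 on cafeteria replicate 2 against 5.45 on the other cafeteria array and 5.49 to 6.32 on the standard arrays.

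Endothelial markers were low on cafeteria replicate 1, where mitosis genes were high, at a list mean of -0.70 against -0.21 on cafeteria replicate 2, and 11 of 11 lay below all standard arrays on cafeteria replicate 1, against 28.6% of all probe sets kept. Kdr, a receptor for vascular endothelial growth factor, read 8.67 and 9.59 against 9.91, 9.71 and 9.72. Fat cell markers had list means of 0.32 and 0.50 on the cafeteria arrays, and fibroblast and progenitor markers 0.24 and 0.20. Both cafeteria arrays lay above all standard arrays for 9 of 11 fat cell genes. The same held for 6 of 11 fibroblast and progenitor genes, against 13.3% of all probe sets kept. Of these 11, Dpp4 alone lay below all standard arrays on cafeteria replicate 2, with 10.48 and 8.71 against 9.85, 9.95 and 9.75. Smooth muscle and pericyte markers stood at -0.61 and -0.68, inside the range of the standard arrays. The acinar list, high on standard replicate 1, stood between -1.66 and -1.12 on the other 4 arrays. Without standard replicate 1 the mitosis median was 0.31, and no gene changed direction. The licensing and helicase genes were highest on standard replicate 1, at a list mean of 0.09. They stood at -0.05 and -0.04 on standard replicates 2 and 3 and at -0.07 and -0.41 on cafeteria replicates 1 and 2.

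**Figure D5:**
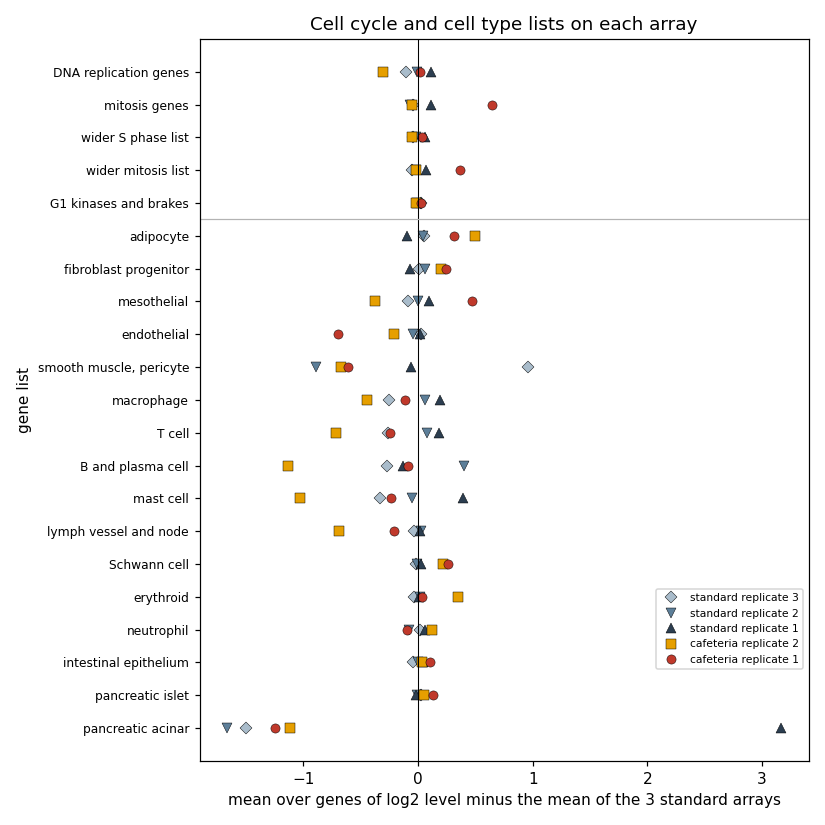
Each symbol is the mean over a list's genes of the log2 level minus the standard mean, by array, for the cell cycle lists (top) and the cell type lists. Cafeteria replicate 1 is the highest array for the mitosis lists and for mesothelial markers. By smaller margins it is also the highest for the fibroblast and progenitor, Schwann cell, islet, intestinal, and G1 kinase and brake lists. Cafeteria replicate 2 is the lowest for the replication genes and for T, B and mast cell markers. It is also the lowest for macrophage, mesothelial, and lymph vessel and node markers and, by little, for the wider S phase and G1 lists.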

How the data were processed

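The values the authors deposited are log2 levels of probe sets. Per the submitters' processing notes they were made with RMA in affy; no version is listed. RMA makes array distributions alike, which can hide a shift common to most transcripts. On each pair of arrays, 11.7% to 14.7% of probe sets held exactly equal values. Such ties occur among the genes described, as in Ccne2, Mcm2 and Cdt1, and there a small spread may understate that between samples. No source used here gives array batches or scan dates. The labelled diet set the groups. P-values measure the spread between these samples.

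From the deposited log2 values, 57 control probe sets were left out and 21729 were kept whose mean over the 5 arrays exceeded the 30th percentile (4.28). A linear model was fitted to each (limma 3.58.1 under R 4.3.3, lmFit then eBayes), testing cafeteria minus standard on both sides with 3 residual and 1.50 prior degrees of freedom. P-values were adjusted by Benjamini-Hochberg over all probe sets kept and called at 0.05. The exact permutation test, two-sided, used the absolute difference of means. Tested on simulated data, the fit called 89 of 100 shifts of 1 on the log2 scale, 95 of 100 shifts of 2, and 9 of 21529 probe sets with no shift. The simulated noise was independent for each probe set and array, so no genes moved together on an array, as the mitosis genes did. Its variances were the moderated ones of the fit, which are more alike than those estimated for each probe set alone. The counts therefore do not give the power in the measured data, where 0 of 21729 probe sets were called.

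Symbols came from GEO's platform annotation, where 20826 probe sets have 1 symbol, 436 have several and 9780 are unnamed; 20758 matched a RefSeq gene and 0 symbols changed. The genes and lists were chosen with earlier results of these data known. All genes may be named; values on every array were set for the best known ones and for the 3 with the largest difference in each role, and up to 4 genes with the smallest unadjusted p came from each wider list. The values of the remaining genes, the ranking by the gap between cafeteria arrays and the cell type genes beyond the first of a list were added after values were seen. Alternatives were other filters, normalizations, variance models, array weights, probe set choices, the replicate number as a block, and each array left out in turn.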

Additional observations from a re-analysis of the deposited data

How the results depend on the processing

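No gene passed the adjusted test under any alternative that kept both cafeteria arrays. The number higher at an unadjusted p under 0.05, 2 as reported, was 0 with the filter at the 50th percentile. That filter left 25 genes to test and removed both Aurka and Ccne1. The number higher was 1 with no filter, without moderation, with array weights and with a replicate block. The number lower, 2 as reported, was 1 without moderation. Leaving out each array gave 1 to 19 higher and 1 to 8 lower, with the extremes without cafeteria replicate 2 (19) and without cafeteria replicate 1 (8), where the lone cafeteria sample is assumed to vary like the standard group. The median difference ran from -0.0892 to 0.43 over all genes, from -0.31 to -0.02 over replication genes and from 0.0185 to 0.60 over mitosis genes, each range set by the cafeteria arrays. Without a cafeteria array or a standard array, signs turned within these ranges: Ect2 -0.64 to 1.41, Ccnb2 -0.48 to 0.69, Mki67 -0.32 to 0.80, Aurkb -0.22 to 0.34, Kif23 -0.17 to 0.58, Rrm1 -0.16 to 0.19, Racgap1 -0.15 to 0.47, Ube2c -0.14 to 0.60, Top2a -0.13 to 0.93, Cdc20 -0.11 to 0.58, Pttg1 -0.0903 to 0.72, Plk1 -0.0234 to 0.18, Prc1 -0.0135 to 1.14, Mcm4 -0.49 to 0.0155 and Mcm5 -0.087 to 0.0484. Ccne2 ran from -0.0488 to 0.00. Quantile normalization gave 0.0261 for Mcm5 and moved the median of all probe sets to 0.02; the mean of all probe sets gave 0.0202 for Ccne2. The cause was not tested. Ccna2 and Ttk could be tested only with no filter.

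The titles share replicate numbers 1 and 2 between diets, and no source used here says that they pair samples. Deviations of cafeteria replicate 1 correlated with those of standard replicate 1 at 0.08, and of cafeteria replicate 2 with standard replicate 2 at -0.04. With 2 cafeteria arrays the deviations of one mirror those of the other, so these values can neither show nor exclude a pairing. The fit with the replicate block gave medians of 0.14 over all genes, -0.22 for replication and 0.20 for mitosis, with 1 gene higher and 3 lower at an unadjusted p under 0.05 and a smallest adjusted p of 0.473 in limma. It turned Rrm1 to -0.017 and Ccnb2 to -0.0356.

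With 2 arrays against 3, the number of arrays limits every difference, and dim genes such as Ttk, near the filter at 4.28, carry least signal over background.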

Other observations

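Genes outside the 44 that were highest on cafeteria replicate 1 and far lower on cafeteria replicate 2 are given as values, chosen after their values were seen. In the wider mitosis list these were Cdkn3, a phosphatase that acts on Cdk kinases, Aspm, a spindle pole protein, and Cks2, a small Cdk-binding subunit. Cdkn3 read 7.58 and 6.23 on cafeteria replicates 1 and 2 and 6.45, 6.26 and 5.70 on standard replicates 1 to 3. Aspm read 5.72 and 4.61 against 4.80, 4.34 and 4.26, and Cks2 read 7.65 and 6.18 against 6.75, 6.65 and 6.13. In all 3 the first cafeteria array was the highest.

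Ranked by the gap between the cafeteria arrays over 11509 genes, Ect2 was the only gene of the top 40 that is on a cell cycle list used here. Others are given as examples. Pnoc, the precursor of the neuropeptide nociceptin, was at place 8, with 10.37 and 8.07 against 9.37, 9.10 and 9.05. Egfl6, a secreted protein with epidermal growth factor repeats, was at place 15, with 6.89 and 4.90 against 5.73, 5.29 and 5.73. Igfbp2, which binds insulin-like growth factors, was at place 18, with 12.44 and 10.52 against 11.77, 12.11 and 12.08.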
